A study of Bos taurus with 16 samples.

Results

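The RGK family (Rad, Gem and Kir) is a small branch of the Ras GTPases with 4 members in cattle, GEM, RRAD, REM1 and REM2. Its genes were taken from the deposited tables by their NCBI gene identifiers (538437 for GEM, 505165 for RRAD, 508364 for REM1 and 531597 for REM2), and all 4 were among the 34109 genes listed. The libraries came from the round (hind leg) and sirloin (loin) muscles of 8 newborn Hanwoo calves, a Korean beef breed, which the study's methods describe as male and as killed before any colostrum was taken. The dams of 4 calves (control) were fed 100% of their nutritional requirement and those of the other 4 (treated) were overfed at 150% in mid to late pregnancy, so that each muscle had 4 control and 4 treated libraries. The question was whether overfeeding of the dam was accompanied by a different transcript level in the calf's muscle at birth. The family was chosen by its levels under the 2 diets and by the joint variation of GEM and RRAD in these same libraries. Both are therefore described here, and calls of the members by diet are given as a description only.

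RGK proteins bind the beta subunits of voltage-gated calcium channels and strongly reduce the calcium current through them, and they also bind calmodulin and 14-3-3 proteins. In a skeletal muscle fibre the voltage-gated channel CaV1.1 sits in the transverse tubule and acts as the voltage sensor that opens the ryanodine receptor, which starts contraction. RRAD, also called Rad, is abundant in skeletal and cardiac muscle. GEM is an immediate early gene, induced by mitogens. REM1 was found by its likeness to these, and REM2 is best known from neurons.

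The 16 libraries held between 44473011 and 72446933 counts. Skeletal muscle markers summed to between 68929 and 116947 TPM (the authors' length-corrected share of transcripts) per library, so all libraries carried skeletal muscle. These markers are shared by both muscles and do not tell round from sirloin. Adipocyte markers (5 genes) reached 3777 TPM in sirloin treated replicate 4 and at most 15.0 TPM in the other 15 libraries. Fibroblast markers (7 genes) reached 2175 TPM in round control replicate 2 and at most 749 TPM elsewhere. Summed red blood cell markers ranged from 2.40 to 14.1 TPM in round control and from 7.25 to 29.5 TPM in round treated libraries, with SLC4A1 at 0 throughout. In sirloin muscle their median was 4.08 TPM in control and 12.05 TPM in treated libraries. The treated libraries ranged from 9.98 to 26.5 TPM, and control replicate 1 lay just above the lowest of them, so the groups overlapped. Of 61 markers tested in 10 lists, edgeR called 0 at an adjusted p of 0.05 by diet in round muscle (8 at an unadjusted p of 0.05, beside 4.41% of all genes) and 0 in sirloin muscle (9, beside 3.91% of all genes), and DESeq2 called 2 and 0. The part of these other cell types in the levels below was not tested, and in whole muscle fewer cells of a type and less RNA per cell cannot be told apart.

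RRAD was by far the most abundant RGK transcript in newborn muscle. Per unit of length it ranged from 36.6 to 340 TPM with a median of 108 TPM over the 16 libraries, and it was the highest of the 4 members in 16 of 16. It made up between 83.1% and 96.5% of the summed RGK level (median 92.7%). REM1 had a median of 5.42 TPM (range 3.32 to 10.1) and GEM a median of 3.34 TPM (range 1.18 to 10.8), and REM2 was the lowest member in every library, at 0 to 0.380 TPM.

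GEM and REM1 were neighbours in this order and their ranges overlapped. REM1 exceeded GEM in 11 of 16 libraries. GEM was the higher of the 2 in 3 of 4 round control libraries and in 2 of 4 sirloin control libraries, whereas REM1 was higher in all 4 round treated and all 4 sirloin treated libraries. The order of GEM and REM1 was therefore mixed in the control calves and uniform in the treated calves, which follows from the diet values that chose the family.

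**Figure D1:**
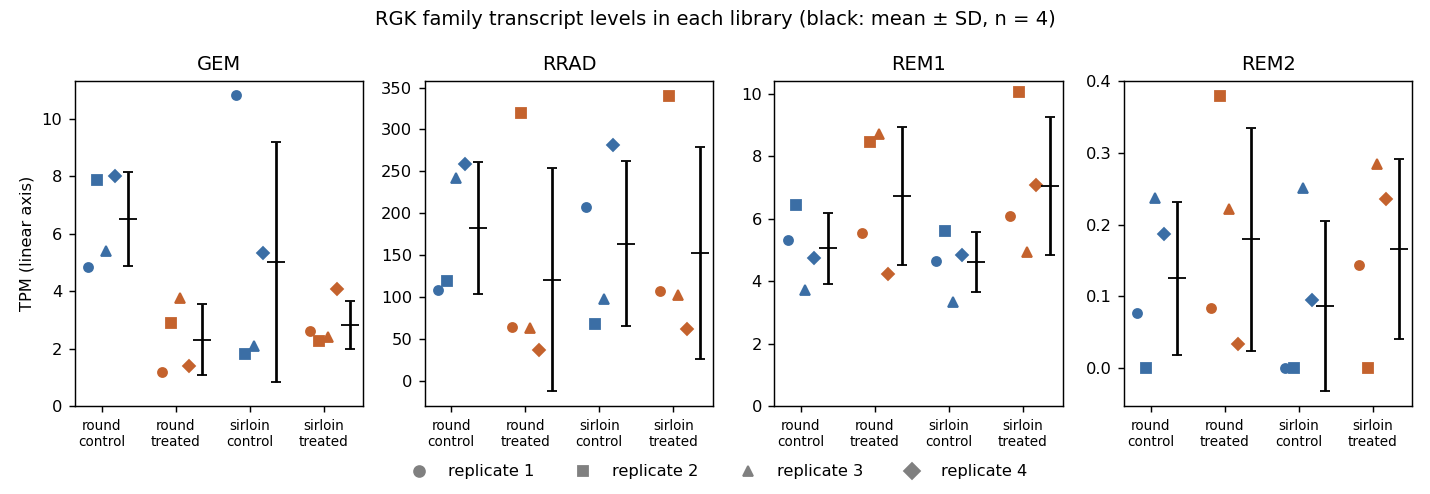
TPM (linear axis, a separate range for each gene) of GEM, RRAD, REM1 and REM2 in the 16 libraries, with control in blue and treated in orange, one marker shape per replicate number and black bars for the mean ± SD of 4 libraries, some of which extend below 0. GEM in round muscle is the one case in which all control points lie above all treated points, and treated replicate 2 stands high for RRAD in both muscles.

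GEM was lower in round muscle of treated calves than in that of control calves. On the CPM scale (a gene's share of all counts of a library, scaled by TMM factors) round control replicates 1 to 4 had 8.09, 10.4, 8.28 and 12.9 CPM. Round treated replicates 1 to 4 had 1.74, 3.72, 5.41 and 2.05 CPM. All 4 control libraries lay above all 4 treated libraries, with the highest treated calf, replicate 3, still below the lowest control calf, replicate 1. The means were 9.92 ± 2.26 and 3.23 ± 1.69 CPM (SD over 4 libraries). Treated calves were 3.04-fold lower, with a log2 fold change of -1.60 ± 0.383 (SE). Without control replicate 2, the library rich in fibroblast markers, it was -1.62 ± 0.411 (SE). These values rested on 98 to 802 counts per library.

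In sirloin muscle GEM was uneven among the control calves. Sirloin control replicates 1 to 4 had 17.1, 2.57, 3.09 and 7.51 CPM. Sirloin treated replicates 1 to 4 had 3.41, 2.80, 3.21 and 5.42 CPM. Control replicates 1 and 4 stood above all treated calves, while control replicate 2 lay below all of them and control replicate 3 among them, so the groups overlapped. The means were 7.57 ± 6.72 and 3.71 ± 1.17 CPM (SD over 4 libraries), and the log2 fold change was -1.03 ± 0.548 (SE). Control replicate 1 carried most of this difference, since without it the log2 fold change was -0.24 ± 0.437 (SE). Without treated replicate 4, the library rich in adipocyte markers, it was -1.25 ± 0.601 (SE).

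RRAD varied severalfold among calves of one diet. Round control replicates 1 to 4 had 106, 94.6, 225 and 251 CPM. Round treated replicates 1 to 4 had 55.8, 245, 53.6 and 32.2 CPM. The 3 treated replicates 1, 3 and 4 lay below every control calf, whereas treated replicate 2 was close to the highest control calf. The means were 169 ± 80.1 and 96.7 ± 99.6 CPM (SD over 4 libraries), and the log2 fold change was -0.79 ± 0.580 (SE). Without treated replicate 2 it was -1.85 ± 0.411 (SE), so that the size of the difference in round muscle rested on whether this calf was included.

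The same calf was the highest for RRAD in sirloin muscle. Sirloin control replicates 1 to 4 had 198, 57.2, 87.3 and 238 CPM. Sirloin treated replicates 1 to 4 had 84.4, 255, 81.0 and 49.7 CPM. Control and treated calves were interspersed, with control replicates 1 and 4 and treated replicate 2 high and the other 5 low. The means were 145 ± 86.4 and 117 ± 92.8 CPM (SD over 4 libraries), and the log2 fold change was -0.30 ± 0.547 (SE). Without treated replicate 2 it was -1.01 ± 0.467 (SE), and without control replicate 4 it was 0.04 ± 0.576 (SE).

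REM1 was the member with the least spread among calves and smaller diet differences than GEM. Round control replicates 1 to 4 had 5.49, 5.30, 3.64 and 4.80 CPM, and round treated replicates 1 to 4 had 5.08, 6.79, 7.86 and 3.97 CPM. Treated replicates 2 and 3 lay above all control calves and replicate 4 below 3 of them, for a log2 fold change of 0.32 ± 0.304 (SE). Sirloin control replicates 1 to 4 had 4.62, 4.93, 3.11 and 4.34 CPM, and sirloin treated replicates 1 to 4 had 5.08, 7.96, 4.06 and 5.95 CPM. Of the treated calves, 3 of 4 lay above all control calves, for a log2 fold change of 0.44 ± 0.293 (SE). REM1 was thus higher on average under overfeeding in both muscles, with overlapping groups in each, opposite in sign to GEM and RRAD.

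REM2 was close to the limit of detection. Round control replicates 1 to 4 had 3, 0, 7 and 7 counts and round treated replicates 1 to 4 had 4, 11, 10 and 2 counts. Sirloin control replicates 1 to 4 had 0, 0, 11 and 3 counts and sirloin treated replicates 1 to 4 had 5, 0, 12 and 10 counts. No group stood apart. A count of 0 allows a level of up to 0.0414 to 0.0660 CPM in the 4 libraries without a count (3 counts of the total, counting error only), and differences at this level were not detectable. In the RefSeq annotation of ARS-UCD2.0, REM2 overlaps its neighbour RBM23 (mean 24.5 CPM), and whether the counting used strand is not given in the sources used here, so some REM2 counts may belong to RBM23.

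Across all genes, edgeR's quasi-likelihood test called few differences between the diets. At an adjusted p of 0.05 it called 0 of 4 members in round muscle, where 0.0185% of all genes tested were called, and 0 of 4 in sirloin muscle, where 0.00918% were. At an unadjusted p of 0.05, GEM in round muscle was the 1 member called (4.41% of all genes, 2.49% as lower), and none was in sirloin muscle (3.91%). DESeq2 called GEM in round muscle (0.212% of all genes) and no member in sirloin muscle (0.0597%), and limma-voom called none in either (0.00461% and 0% of all genes). GEM in round muscle was also the 1 member whose diet groups did not overlap, as was true of 1.76% of all genes there (1.07% with treated lower) and of 1.68% in sirloin muscle. Because these contrasts chose the family, the counts are given as a description only.

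**Figure D2:**
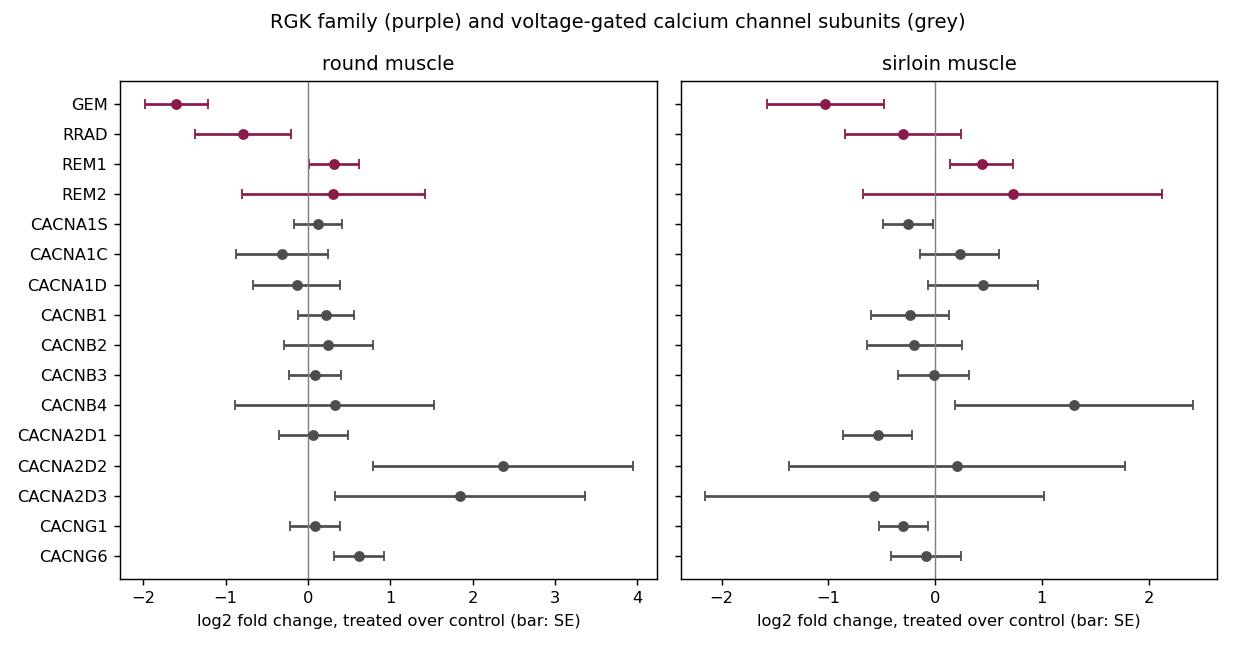
Log2 fold change of treated over control calves (points, bars ± SE from edgeR) in round (left) and sirloin muscle (right) for the 4 RGK members (purple) and 12 voltage-gated calcium channel subunits (grey). GEM lies farthest below 0 in both muscles, at -1.60 and -1.03, while the bars of CACNA1S and CACNB1 in round muscle cross 0.

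The log2 fold change by diet was lower in round than in sirloin muscle for every member, by less than the SE of that difference. These differences are built from the diet values that chose the family, so the results below are a description only. The difference between the muscles (round minus sirloin, log2) was -0.59 ± 0.706 for GEM, -0.50 ± 0.886 for RRAD, -0.14 ± 0.402 for REM1 and -0.45 ± 1.82 for REM2 (SE). The interaction test of edgeR called 0 of 4 members and 0% of all genes at an adjusted p of 0.05, and DESeq2 and limma-voom called 0 members and 0% as well. At an unadjusted p of 0.05, edgeR called 0 members and 2.78% of all genes. With the calf as a block, GEM was at -1.11 ± 0.669 and RRAD at -0.79 ± 0.401 (SE), still without a call. The value for GEM depended on control replicate 1, without which it was -1.45 ± 0.627 (SE) and 1 of 4 members, GEM, passed an unadjusted but not an adjusted p of 0.05 in edgeR's test.

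The comparison of the 2 muscles was not used to choose the family. No member passed the test between the muscles. The log2 fold change of round over sirloin was 0.10 ± 0.353 for GEM, -0.03 ± 0.442 for RRAD, 0.11 ± 0.201 for REM1 and 0.38 ± 0.916 for REM2 (SE, edgeR's quasi-likelihood test, each with an adjusted p of 0.999951). Out of all genes tested, 0.0612% were called. At an unadjusted p of 0.05, edgeR called 0 of 4 members (6.33% of all genes), and DESeq2 (0.363% of all genes) and limma-voom (0.0918%) also called none at an adjusted p of 0.05. The 8 round and 8 sirloin libraries overlapped for each member, as for all but 0.0831% of genes. With the calf as a block the value for RRAD was -0.07 ± 0.200 (SE), and that for REM2 had the widest error, at 0.61 ± 0.942 (SE). Round was the higher muscle in 5 of 8 calves for GEM and REM1, in 3 of 8 for RRAD, and in 3 of 8 for REM2, with 4 calves the other way.

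RRAD kept nearly the same order among the calves in both muscles. Over the 8 calves, the round and sirloin levels (log2 CPM) had a Spearman's coefficient of 0.881 (two-sided exact permutation p = 0.00724, 0.0217 adjusted over 3 members) and a Pearson's r of 0.731 (p = 0.0405 by the same exact test, 0.121 adjusted). Without the 2 calves farthest from the median in round muscle (treated replicate 4 and control replicate 4) r was 0.517, and with the diet means removed it was 0.753. Leaving out 1 calf at a time gave r between 0.626 and 0.866. This relation was examined after the values had been seen. Similar levels in a calf's muscles were common to most genes, as the median r over 12315 genes was 0.590 and 70.9% of them had a lower r than RRAD.

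For GEM no such relation passed the test. Its r between the muscles was 0.228 (exact permutation p = 0.634) and its Spearman coefficient -0.0476 (exact permutation p = 0.935), and 17.3% of genes had a lower r. Control replicate 1 had 17.1 CPM in sirloin and 8.09 CPM in round muscle, whereas control replicate 2 had 2.57 and 10.4 CPM. For REM1 r was 0.341 (exact permutation p = 0.412) and Spearman's coefficient 0.167 (exact permutation p = 0.703). Intervals for 8 calves are wide, and these values do not show that GEM or REM1 levels were unrelated between the muscles.

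**Figure D3:**
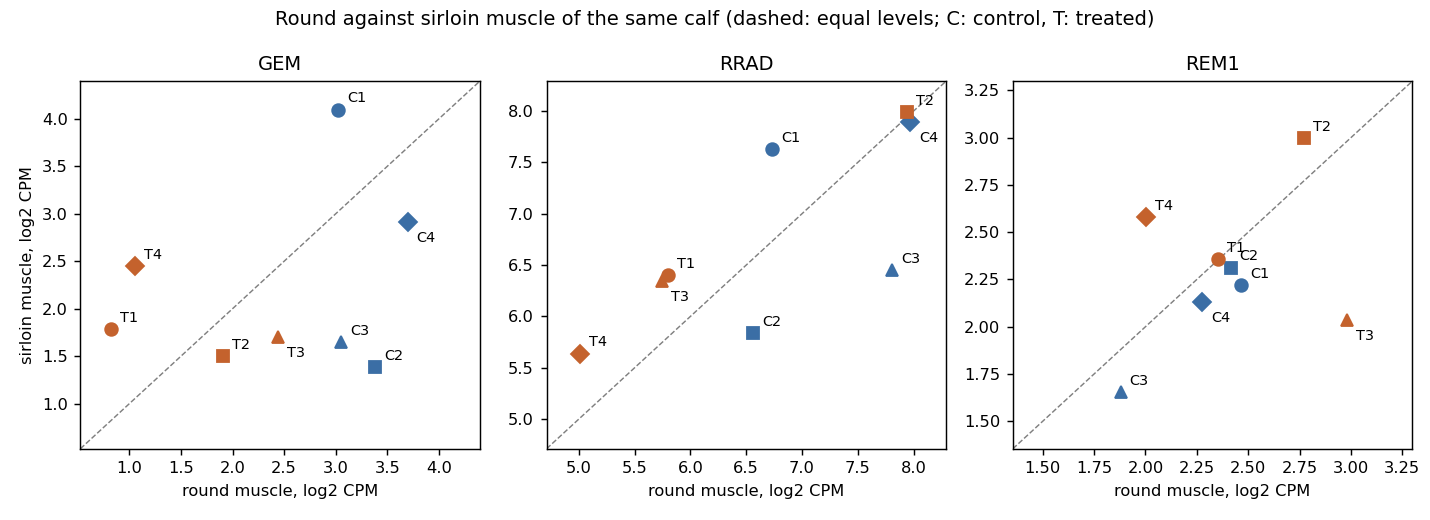
Level in round (x) against sirloin muscle (y) of the same calf, in log2 CPM, for GEM, RRAD and REM1, with 1 point for each of 8 calves (C control, T treated, followed by the replicate number) and a dashed line of equal levels. RRAD points rise along the line (Spearman 0.881), with T2 and C4 at the top and T4 at the bottom, while GEM points scatter (Spearman -0.0476).

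GEM and RRAD varied together in round muscle, where both were lower on average in treated calves. Over the 8 round libraries r was 0.626 and Spearman's coefficient 0.595 (log2 CPM). With the diet means removed r was 0.375. Control replicate 4 was the highest for both genes and treated replicates 1 and 4 low for both, whereas treated replicate 2 had high RRAD with low GEM. Without treated replicates 1 and 4, the 2 farthest from the median of GEM, r was 0.0969, so that the relation rested on those libraries.

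In sirloin muscle the relation was weaker and depended on a pair of control calves. Over the 8 libraries r was 0.430 and Spearman's coefficient 0.143, and with the diet means removed r was 0.389. Without control replicates 1 and 4, which were high for both genes, r was -0.465. Without treated replicate 2 r was 0.724. Over all 16 libraries with the mean of each muscle and diet group removed, r was 0.371. By that measure RRAD ranked 1244 of 12314 genes in likeness to GEM, and GEM ranked 1901 of 12314 in likeness to RRAD. REM1 stood at a like distance, with r of 0.371 to GEM and 0.314 to RRAD. The 2 libraries of a calf are not independent, and these correlations are descriptions.

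**Figure D4:**
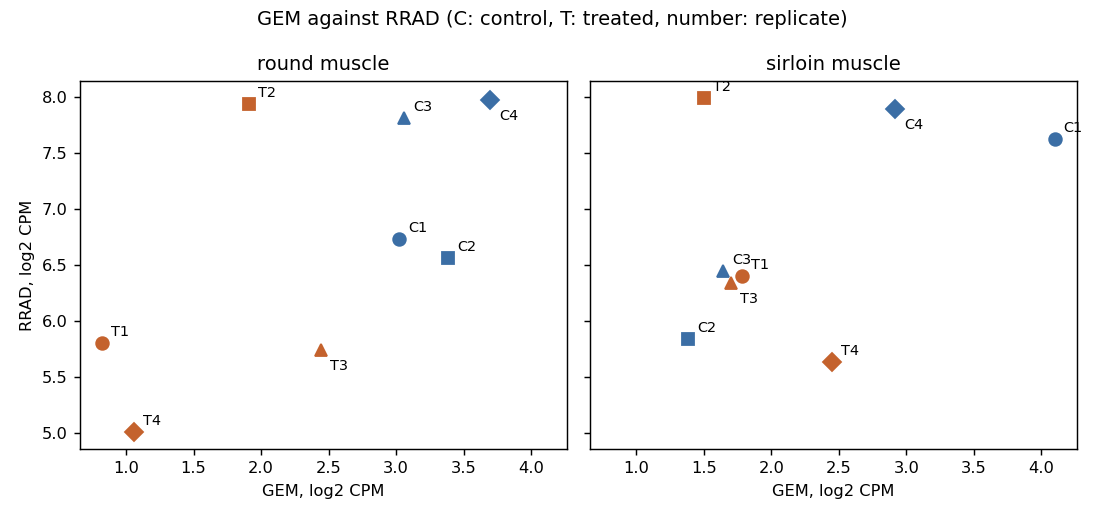
GEM (x) against RRAD (y), both in log2 CPM, in the 8 round (left) and 8 sirloin libraries (right), with C for control, T for treated and the replicate number. The round points spread from T4 and T1 at the lower left to C4 at the upper right with T2 off this line (r 0.626), and the sirloin points show C1 and C4 apart at the upper right (r 0.430).

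The spread within groups differed between the members. RRAD had a pooled within-group SD of 1.01 on the log2 CPM scale, larger than that of 93.1% of 12315 genes with a mean of at least 1 CPM. For GEM it was 0.775 (larger than in 85.5%), and for REM1 0.358 (larger than in 34.2%), beside a median gene at 0.437. REM2 had too few counts to enter this ranking.

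The genes whose levels followed GEM most closely were ENAH, PLAGL1, LITAF, RIPK2 and PYGL. Their Pearson's r with GEM was 0.805, 0.798, 0.788, 0.784 and 0.773 over 16 libraries with the group means removed. ENAH, a regulator of actin filament growth, shared the diet pattern of GEM. It had 692 ± 85.8 CPM in round control and 125 ± 46.2 CPM in round treated libraries (SD, n = 4), and 215 ± 206 and 52.2 ± 14.2 CPM in sirloin muscle. Like GEM, its highest sirloin value was in control replicate 1 (511 CPM), without which calf its r with GEM was 0.601. PYGL, the liver form of glycogen phosphorylase, and PLAGL1, an imprinted zinc finger factor, followed GEM among calves but not by diet, with log2 fold changes in round muscle of 0.02 ± 0.273 and -0.11 ± 0.254 (SE).

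RRAD was followed most closely by DIO3, ACKR2, ANKRD1, SCN3B and RUFY3. Their r was 0.911, 0.900, 0.892, 0.889 and 0.882, and leaving out any 1 calf kept each of them at 0.792 or above. DIO3 inactivates thyroid hormone, ANKRD1 is a stretch-responsive titin-associated protein, and SCN3B is a sodium channel beta subunit. ANKRD1 had 3988 ± 3268 CPM in round control and 489 ± 513 CPM in round treated libraries (SD, n = 4), with a log2 fold change of -3.00 ± 0.819 (SE). In sirloin muscle it had 497 ± 458 and 147 ± 110 CPM. Treated replicate 2, the calf with high RRAD, was the highest treated calf for each of these 5 genes in both muscles. The genes were chosen by their likeness to RRAD in these same libraries, which favours such genes, so this is a description only. For DIO3 this calf had 3.15 CPM in round and 3.30 CPM in sirloin muscle, beside 0.292 to 1.11 and 0.718 to 1.46 CPM in the other treated calves. Among the marker lists, the fibroblast genes had a median r of -0.60 with RRAD (1 of 7 above 0), whereas over all 12314 genes the median was -0.06. Leucocyte markers had a median r of 0.33 (5 of 5 above 0). Treated replicate 2 also had the highest leucocyte marker sum in each muscle, at 23.5 TPM in round and 32.2 TPM in sirloin muscle, and its part in the RRAD levels was not tested.

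**Figure D5:**
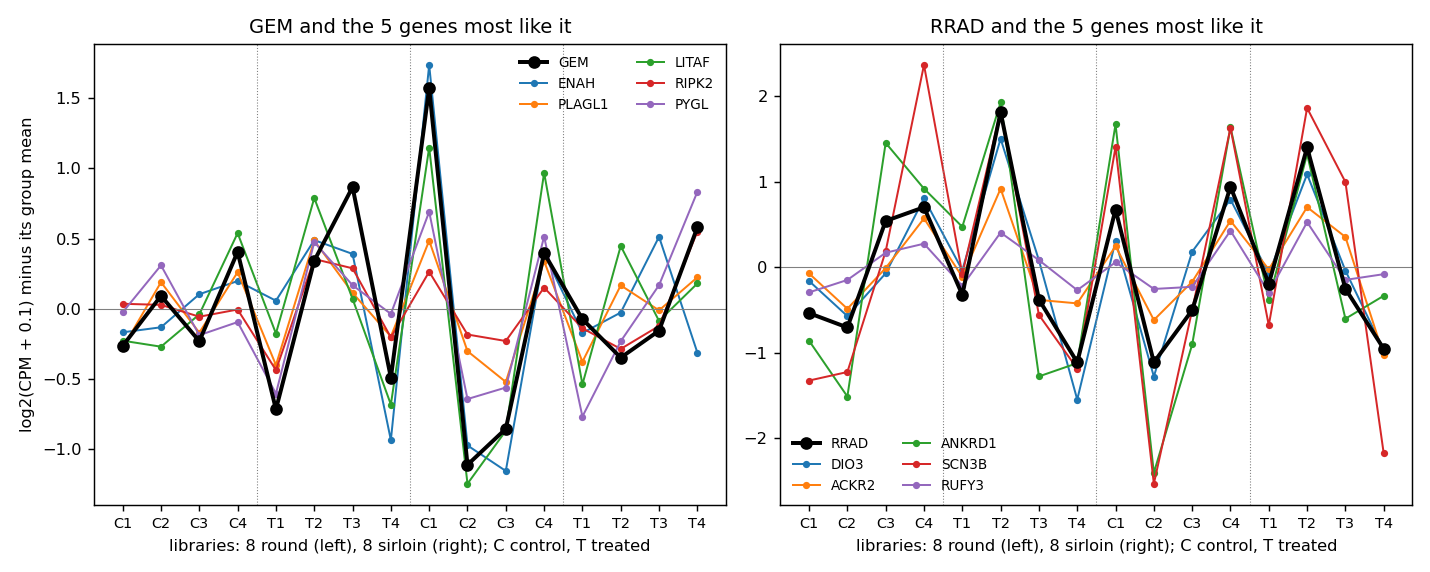
Log2(CPM + 0.1) minus its group mean (y) in the 16 libraries (x, round left and sirloin right, C control, T treated) for GEM (left panel, black) and RRAD (right panel, black) with the 5 genes most like each. Among the treated libraries of each muscle, the lines of RRAD and its 5 genes are highest at T2. Among control libraries SCN3B in round and ANKRD1 in sirloin muscle rise higher still above their group means. The lines of GEM and ENAH peak at sirloin C1. The 5 genes of each panel were chosen by this likeness. Dotted lines part the 4 groups.

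REM1 had its highest likeness among the marker lists to those of leucocytes and endothelium. The genes closest to it, named here after their values were seen, were INKA2, CCM2L, TTC7B, OSR1 and HEG1, with r of 0.916, 0.908, 0.896, 0.882 and 0.870. CCM2L and HEG1 belong to the cerebral cavernous malformation pathway of endothelial cells. HEG1 and INKA2 followed REM1 among calves but not by diet, with log2 fold changes in round muscle of -0.94 ± 0.242 and -0.71 ± 0.413 (SE). CCM2L, TTC7B and OSR1 were above 0 there, like REM1. Endothelial markers had a median r of 0.54 with REM1 (7 of 8 above 0) and leucocyte markers one of 0.67 (5 of 5 above 0), beside -0.04 over all genes. For RRAD the endothelial median was -0.19 and for GEM 0.31. The endothelial marker sum was 63.9 to 121 TPM in round control, 103 to 122 TPM in round treated, 77.4 to 88.5 TPM in sirloin control and 77.6 to 198 TPM in sirloin treated libraries. Its part in the REM1 levels was not tested.

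The calcium channel that RGK proteins act on was strongly expressed and gave no call by diet or muscle. CACNA1S, the pore of CaV1.1, had a mean of 202 TPM and CACNB1, its beta subunit and the RGK docking site, one of 115 TPM. Their log2 fold changes by diet were 0.12 ± 0.291 and 0.22 ± 0.339 in round and -0.26 ± 0.237 and -0.24 ± 0.364 in sirloin muscle (SE). Of the 12 channel subunits, edgeR called 0 in round, in sirloin and between muscles, at an adjusted and at an unadjusted p of 0.05, and DESeq2 called 0. Their median log2 fold change was 0.17 in round and -0.14 in sirloin muscle, beside 0.02 and 0.03 over all genes. Among subunits with a mean of at least 1 CPM, the largest in round muscle was that of CACNG6 (0.62 ± 0.304, SE) and in sirloin muscle that of CACNA2D1 (-0.54 ± 0.326, SE).

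Triad proteins that couple the channel to calcium release were also without a call (0 of 8 by edgeR or DESeq2 in each comparison). At an unadjusted p of 0.05, edgeR called 0 by diet and 1 between muscles, ASPH, at 0.37 ± 0.150 (log2 round over sirloin, SE). RYR1, the ryanodine receptor, was at -0.04 ± 0.293 in round and -0.51 ± 0.243 in sirloin muscle (log2 by diet, SE). The median of the list was 0.01 in round and -0.44 in sirloin muscle, where 7 of 8 were below 0. Over all genes the medians were 0.02 and 0.03. The skeletal muscle markers were likewise lower in sirloin muscle, with a median of -0.32 and 10 of 10 below 0, beside a median of 0.16 in round muscle.

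Known RGK binding partners, chiefly calmodulins and 14-3-3 proteins, gave 0 calls of 19 at an adjusted p of 0.05 by edgeR or DESeq2. At an unadjusted p of 0.05, edgeR called 2 of 19 in round muscle (4.41% of all genes), both lower and both 14-3-3 genes, YWHAQ (-0.80 ± 0.247) and YWHAZ (-0.73 ± 0.233, log2 and SE). These were also the 2 of 19 whose diet groups did not overlap in round muscle (1.76% of all genes). In sirloin muscle it called 3 lower and 1 higher (3.91% of all genes), the largest of the 3 being CALM3 (-0.65 ± 0.225, log2 and SE), which encodes calmodulin. There the diet groups of 4 lower and 1 higher partner did not overlap (1.68% of all genes). The 1 higher partner by both measures was SFN, near the limit of detection. It had 0 CPM in sirloin control and a mean of 0.0654 CPM in sirloin treated libraries. The median was -0.20 in round and -0.18 in sirloin muscle.

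Other Ras family GTPases gave 0 calls of 30 in each comparison (edgeR and DESeq2), with a median log2 fold change of -0.09 in round and -0.03 in sirloin muscle. At an unadjusted p of 0.05, edgeR called 3 of 30, all lower, in round muscle (2.49% of all genes as lower) and 1 of 30, higher, in sirloin muscle (3.91% of all genes in either direction). The higher one was RHEBL1, near the limit of detection at 0 CPM in sirloin control and a mean of 0.0497 CPM in sirloin treated libraries. Immediate early genes, the class to which GEM belongs, gave 1 edgeR call of 24 in round muscle (0.0185% of all genes). DESeq2 called 3 of 24 there (0.212% of all genes). The edgeR call was FOSL1, a subunit of the transcription factor AP-1, whose mean was 12.8 ± 6.86 CPM in control calves and 0.549 ± 0.370 CPM in treated calves (SD over 4 libraries). Its log2 fold change was -4.49 ± 0.572 (SE, edgeR adjusted p = 0.0367), and it was also higher in round than in sirloin muscle, by 4.06 ± 0.532 (adjusted p = 0.00184). Of this list 19 of 24 were below 0 in round and 7 of 24 in sirloin muscle. The medians were -0.45 and 0.22, beside 0.02 and 0.03 over all genes. The median r of the list was 0.23 with GEM (17 of 22 above 0) and 0.05 with RRAD (11 of 22). RRAD is also a target of p53, and the 12 p53 targets tested gave 0 calls by edgeR or DESeq2 in each comparison. At an unadjusted p of 0.05, edgeR called 2 lower in round (2.49% of all genes as lower) and 0 in sirloin muscle (3.91%). The medians of the p53 targets were -0.15 and -0.04.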

How the data were processed

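Raw read counts per gene and TPM, both as deposited by the authors, were used for 16 libraries and mapped to groups by the labels. The deposited counts carry no normalization. The deposited TPM sum to 1000000 in both libraries of control replicate 2 and to 999756 to 999858 in the other 14, and whether that calf was processed separately is not given in the sources used here. The sources differ on preparation: per the labels poly(A) selection, STAR, featureCounts and ARS-UCD1.2, per the study's methods a stranded total RNA kit with rRNA and globin removal, HISAT2, Bowtie2 and StringTie. Deposited tables of the authors' fold changes and p-values were not used.

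Gene symbols came from RefSeq (ARS-UCD2.0) and matched 30762 of 34109 identifiers (90.2%). RIT2 and PAX7 of the gene lists were unmatched. No sequence table was used here.

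Counts were tested with edgeR 4.0.16 in R 4.3.3 (TMM, quasi-likelihood with the older fitting method, two-sided, Benjamini-Hochberg) on genes with at least 1 count in any library, each muscle by itself (21677 and 21776 genes), or all 16 libraries in 4 groups (22877 genes). SE is the log2 fold change divided by the square root of F. DESeq2 1.42.0 and limma 3.58.1 were alternatives. Correlations used log2 CPM with a prior count of 2 (SciPy 1.17.1), and genes of mean CPM of at least 1 for likeness. P-values of the diet tests within a muscle measure the spread between calves. The tests over 16 libraries had no calf term, so they took a calf's 2 muscles as independent, except where a calf block is named. On simulated data with 200 genes changed 4-fold, edgeR recovered 68.0% in round and 65.0% in sirloin muscle and 87.0% between muscles. For the diet difference between muscles it recovered 40.5%. The changed genes were drawn from genes with more counts than REM2, and the simulated libraries were independent, without a calf effect. These shares therefore do not cover genes as low as REM2 or the likeness of a calf's 2 muscles. In round muscle edgeR made 15 false calls, and DESeq2 recovered 81.5% with 62 false calls.

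Replicate numbers pair the muscles of a calf by the labels' shared sample numbers, and after group means were removed muscles of one calf correlated at 0.311 to 0.765, against a median of -0.109 between calves. The members, the gene lists (channel subunits, triad, binding partners, Ras GTPases, immediate early, p53, markers) and the tests were chosen with earlier results of these data known. Genes named besides the members were those called by edgeR, the largest changes of a list without calls, and the 5 genes most like GEM and RRAD. YWHAQ, YWHAZ, ASPH, RYR1, CALM3, SFN, RHEBL1 and the genes like REM1 were named after their values were seen where this rule does not give them.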

Additional observations from a re-analysis of the deposited data

Results flagged for a closer look

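RRAD in treated replicate 2 stood far from the other 3 treated calves in both muscles. In round muscle it had 245 CPM beside 32.2 to 55.8 CPM, and the gap to its neighbour was 0.889 of the range of the group. In sirloin muscle it had 255 CPM beside 49.7 to 84.4 CPM, and the gap was 0.831 of the range. Both shares, taken on the linear CPM scale, were above Dixon's 95% critical value for 4 samples, the second narrowly. Dixon's rule assumes normal values. On the log2 CPM scale the gaps were smaller shares of the range, and both were below that critical value, so the flag holds on the linear scale only. Treated replicate 2 was then at 7.94 beside 5.01 to 5.80 in round and at 7.99 beside 5.64 to 6.40 in sirloin muscle. The diet values of RRAD helped to choose the family, so the flag is a description only. Out of 16 groups checked (4 members in 4 groups) 2 exceeded the critical value on the linear scale, where chance gives about 1 in 20 for normal values. The 2 come from one animal and are not independent. The same calf had the highest summed leucocyte markers in each muscle (23.5 and 32.2 TPM), whose part in this was not tested.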

How the results depend on the processing

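Precision was limited by 4 calves per diet and, for REM2, by at most 12 counts per library. The number of genes called by edgeR was 4 in round muscle (46 with DESeq2, 1 with limma-voom, 2 with a replicate block, 0 to 3 leaving out a calf), 2 in sirloin muscle (13, 0, 0, and 0 to 1) and 14 between muscles (83 with DESeq2, 109 with the calf as replicate block, 13 to 19 leaving out a calf). For the diet difference between muscles it was 0 (1 with the calf as replicate block, 0 leaving out a calf). Calves of equal number under the 2 diets were not paired (correlations of -0.0436 to 0.290 in round and -0.280 to 0.274 in sirloin muscle). The calf block changed no call of a member.

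Leaving out 1 calf moved the log2 diet difference of RRAD in round muscle between -1.85 and -0.53, of GEM in sirloin muscle between -1.33 and -0.24, and of REM2 in round and sirloin muscle between -0.22 and 0.70 and between 0.31 and 2.21. GEM in round muscle stayed between -1.99 and -1.40. Between muscles the ranges crossed 0 for GEM (-0.11 to 0.54), RRAD (-0.21 to 0.15), REM1 (-0.0400 to 0.183) and REM2 (-0.0664 to 0.928), and for the diet difference between muscles for REM1 (-0.430 to 0.0118), where GEM ranged from -1.45 to -0.21. The GEM and RRAD correlation in round muscle was 0.375 with diet means removed, 0.0969 without the 2 farthest libraries and 0.461 to 0.810 leaving out a calf. In sirloin muscle it was -0.465 without the 2 farthest and 0.235 to 0.724 leaving out a calf. The correlation of GEM between a calf's muscles turned to -0.207 with diet means removed. The causes were not tested. The older edgeR fitting was kept as main, and its newer default and the settings of the calf correlation were chosen after seeing the data.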
